A study of Mus musculus with 12 samples.

Results

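The 10 genes studied here encode the proteins closest to the B cell receptor (BCR) in splenic B cells: the Src family kinases Lyn, Blk and Fyn, the kinases Syk and Btk, the adaptors Blnk, Bank1 and Pik3ap1, the phospholipase Plcg2 and the exchange factor Vav1. They were chosen by name from the 55487 genes of the expression table, and all 10 were found and passed the filter of a mean of at least 1 FPKM, which 11841 genes passed. FPKM is the number of sequenced fragments scaled by transcript length and library size, so levels of different genes can be set beside each other. B cells were purified from spleens of wild-type mice (WT) and of Fcmr knockout mice (KO), which lack a receptor for the Fc part of IgM, and cultured with F(ab')2 anti-IgM at 10 µg/mL for 1 h or 6 h. F(ab')2 anti-IgM is an antibody fragment without an Fc part that crosslinks the BCR. The 4 groups of 3 libraries each were WT at 1 h, KO at 1 h, WT at 6 h and KO at 6 h, and all of them had received anti-IgM. The labels call the cells naive and the libraries biological replicates, and they give neither the age or strain of the mice nor the knockout allele. Which libraries came from which animals is also not given in the sources used here, so the p-values describe how far these libraries spread, which may be technical in part.

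When antigen or anti-IgM clusters the BCR, Src family kinases, chiefly Lyn, phosphorylate tyrosines in the tails of CD79A and CD79B, and Syk docks there and becomes active. Syk phosphorylates the adaptor BLNK, which brings Btk and PLCG2 together so that PLCG2 cleaves a membrane lipid and calcium is released, while VAV1 acts on Rac GTPases and the adaptor BCAP, the product of Pik3ap1, recruits PI3 kinase. Lyn also phosphorylates inhibitory receptors such as CD22, and so has both an activating and a restraining role in B cells.

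Library depth was 19260751 to 24058818 fragments, and the 10 genes held between 1291 (Bank1) and 28789 (Pik3ap1) fragments in a library. Between replicates the chi-square per degree of freedom of their fragments was 5.02 (Vav1) to 75.1 (Pik3ap1), above the value of 1 that counting error gives. Fcmr, on mm10 chromosome 1, measured 352, 388 and 379 FPKM at 1 h in WT cells (replicates 1, 2 and 3, the order used throughout) and 48.9, 50.1 and 48.9 FPKM in KO cells, with 368, 401 and 380 FPKM against 43.1, 46.4 and 42.6 FPKM at 6 h. The labels of genotype thus matched the level of the targeted gene, which was 13.2% and 11.5% of the WT mean. Permuting the labels exactly (two-sided) gave p = 0.1 at each time, the smallest value that 3 against 3 allows. The first principal component (83% of the variance) separated the times. On the second (5.3%) both WT libraries numbered 3 (-5.91 and -6.28) lay among the KO libraries (-15.79 to -2.23), so counts of called genes are also given without them.

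The summed level of 9 B cell markers was 2303 to 2637 FPKM at 1 h and 1012 to 1078 FPKM at 6 h over both genotypes, and 8 of the 9 were called lower at 6 h in each. Of all genes tested, 29.2% were called lower over time in WT and 27.9% in KO cells. Markers of other cells were also detected. T cell markers summed to 67.7 to 71.2 FPKM in WT and 60.9 to 76.5 FPKM in KO cells at 1 h, and to 58.9 to 68.8 and 62.4 to 74 FPKM at 6 h. Among these markers Trac was at 6.03 to 11.9 FPKM, Trbc2 at 2.4 to 8.09 FPKM and Cd3e at 0.923 to 2.47 FPKM over the 12 libraries. Of 11 tested, 10 had a negative KO against WT difference at each time (medians -0.37 and -0.24, limma, 0 called, 9 and 4 at an unadjusted p under 0.05), and Lck, which takes a large part of the sum, had a positive one. Over all genes 6465 and 5837 of 11841 were negative, and 11.3% and 7.55% had such a p. Macrophage markers summed to 342 to 475 FPKM in WT and 221 to 283 FPKM in KO cells at 1 h, and to 99.9 to 182 and 72.6 to 111 FPKM at 6 h, and 6 of 11 were called lower in KO cells at 1 h and 1 at 6 h. Neutrophil markers summed to 836, 428 and 57.4 FPKM in the WT libraries of 1 h against 25.5 to 70.8 FPKM in KO cells. At 6 h they summed to 377, 268 and 16.7 FPKM in WT against 15.4 to 41.7 FPKM in KO cells. The WT libraries numbered 3 thus had the lowest WT sum at both times. Leaving them out keeps the WT libraries with the higher neutrophil signal, and its part in the counts of called genes was not tested. NK cell markers summed to 64.3 to 114 FPKM in WT and 63.3 to 69.2 FPKM in KO cells at 1 h, and to 28.8 to 47.3 and 29.6 to 30 FPKM at 6 h. Marginal zone B cell markers stood at 302 to 329 FPKM in WT and 231 to 254 FPKM in KO cells at 1 h, with 164 to 172 and 156 to 166 FPKM at 6 h, and 5 of 8 were called lower in KO cells at 1 h. Over all 11841 genes tested, 52 were called lower in KO cells at 1 h and 11 at 6 h. Plasma cell markers summed to 1191 to 1611 FPKM in WT and 1542 to 1889 FPKM in KO cells at 1 h, and to 698 to 1018 and 900 to 1131 FPKM at 6 h. Jchain (291 to 1242 FPKM over the 12 libraries) and Irf4 (305 to 579 FPKM) took most of this sum. Sdc1 was at 2.82 to 7.86 FPKM and Tnfrsf17 at 0.153 to 3.12 FPKM. In none of these lists was a marker at 0 in all 12 libraries.

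Between 1 h and 6 h of anti-IgM the proximal BCR genes changed in opposite directions: 8 of the 10 were lower at 6 h and 2, Fyn and Vav1, were higher, in WT and in KO cells alike (limma, adjusted p under 0.05). The fall was deepest for Bank1, to 9.79% of its 1 h level in WT and 9.55% in KO cells, and for Syk, to 19.7% and 19.3%, while Fyn rose 3.76-fold and 3.88-fold. The background is broad, since 78.7% of all genes tested were called over time in WT and 78.5% in KO cells. By direction, 29.2% were called lower and 49.5% higher in WT, and 27.9% lower and 50.6% higher in KO cells. For all 10 genes the 3 libraries of 1 h and the 3 of 6 h did not overlap, which held for 79% of all genes in WT and 82.5% in KO cells. The median log2 fold change of the 10 was -0.76 in WT and -0.78 in KO cells, against 0.21 and 0.22 over all genes tested. Setting all libraries to equal medians moved every change by -0.23 in WT and -0.26 in KO cells, after which 1 of the 10 genes was called higher and 8 lower in each genotype, where 38.6% and 39.4% of all genes in WT and 37.9% and 39.4% in KO cells were. With it the share of higher among called genes went from 62.9% to 49.5% in WT and from 64.5% to 49.1% in KO cells. In RNA from bulk cells, fewer cells of a type and less RNA per cell cannot be told apart, and stimulation cannot be told apart from time in culture, since cells without anti-IgM were not analysed here.

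**Figure D1:**
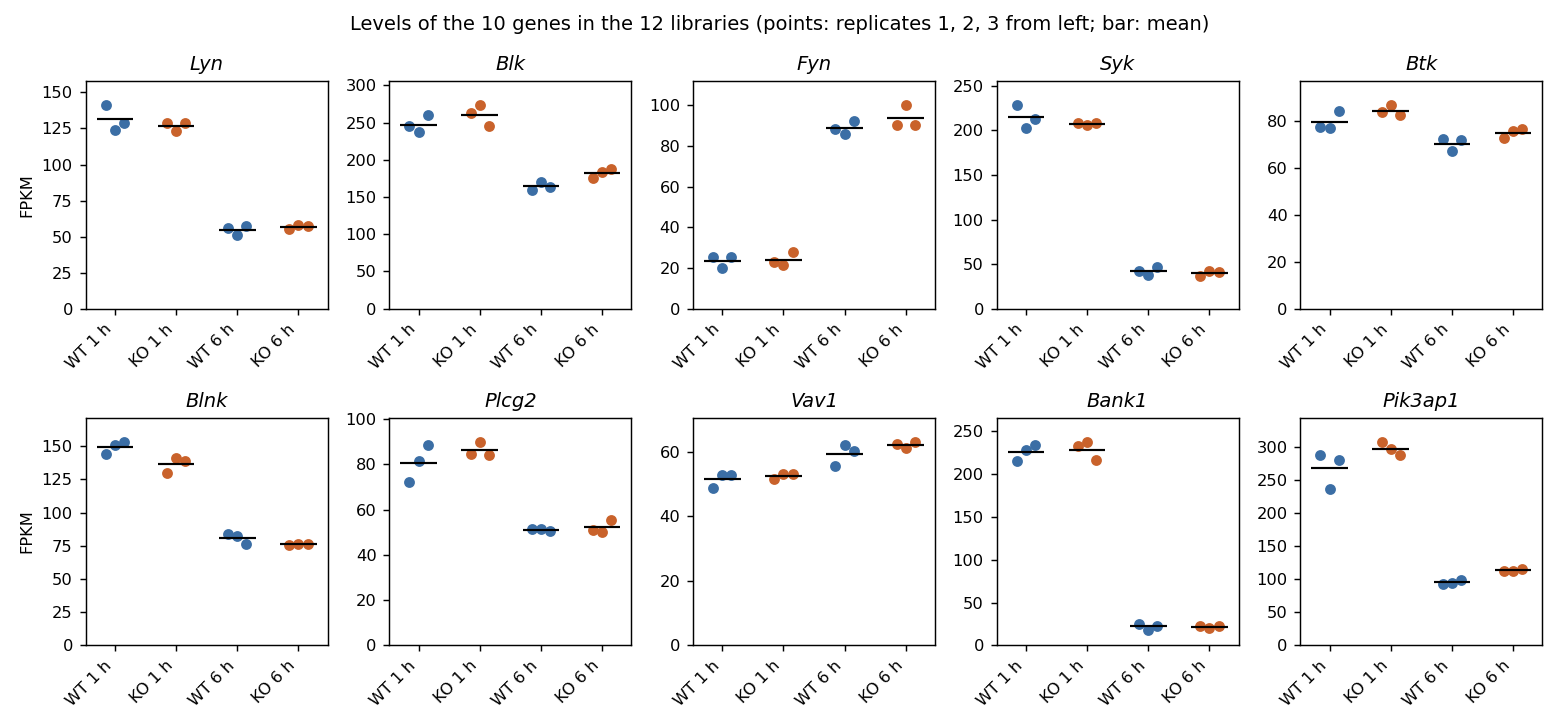
FPKM (y axes, linear, from 0) of the 10 genes in the 12 libraries, by genotype and hours of anti-IgM (x axes); points are replicates 1, 2 and 3 from left and bars are group means. The libraries of 1 h and 6 h stand apart for every gene, with Fyn rising from 20.2 to 27.9 FPKM at 1 h to 85.8 to 100 FPKM at 6 h and Bank1 falling from 215 to 237 FPKM to 17.9 to 25.2 FPKM.

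Lyn (ENSMUSG00000042228, mm10 chromosome 4, 3678115 to 3813122, 13 exons in the transcript whose length the FPKM values use), the main kinase of CD79 phosphorylation, measured 141, 124 and 129 FPKM in WT and 129, 123 and 129 FPKM in KO cells at 1 h. At 6 h it was at 55.8, 51.2 and 57.7 FPKM in WT and 55.3, 58 and 57.6 FPKM in KO cells. Every library of 6 h thus lay well below every library of 1 h, while the genotypes overlapped at both times. The log2 fold change, here and throughout on the scale of log2(FPKM + 1), was -1.24 in WT (SE 0.06, limma adjusted p = 6.06e-09) and -1.14 in KO cells (SE 0.06, adjusted p = 1.11e-08), which left 41.8% and 44.8% of the mean FPKM of 1 h. An annotated gene on the opposite strand, Gm26857, overlaps exons of Lyn, and its level was not analysed here. The library kit marks strand, and whether the counting used it is not given in the sources used here.

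Blk (ENSMUSG00000014453, chromosome 14, 63372836 to 63417037, 13 exons), a Src family kinase found mainly in B lineage cells, was at 245, 237 and 260 FPKM in WT and 263, 273 and 246 FPKM in KO cells at 1 h. At 6 h the values were 159, 170 and 164 FPKM in WT and 176, 183 and 187 FPKM in KO cells. Its fall was shallower than that of Lyn, to 66.4% in WT and 70% in KO cells, with log2 fold changes of -0.59 and -0.51 (SE 0.05 each, limma adjusted p = 1.03e-06 and 3.38e-06). At 6 h the 3 KO libraries all lay above the 3 WT libraries.

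Fyn (ENSMUSG00000019843, chromosome 10, 39368855 to 39565381, 14 exons), a Src family kinase best known from T cells and neurons, was the lowest of the 10 at 1 h, at 25.3, 20.2 and 25.4 FPKM in WT and 23.1, 21.3 and 27.9 FPKM in KO cells. At 6 h it was at 88.6, 85.8 and 92.2 FPKM in WT and 90.5, 100 and 90.3 FPKM in KO cells, above Lyn in every library. Its log2 fold change was 1.88 in WT (SE 0.10, limma adjusted p = 2.64e-08) and 1.92 in KO cells (SE 0.10, adjusted p = 2.28e-08), above the 95th percentile of all genes (1.5 in each). Fyn is also expressed in T cells, and of 11 tested T cell markers 7 were called lower and 1 higher at 6 h in WT and 6 lower and 1 higher in KO cells. Of all genes tested, 29.2% were called lower and 49.5% higher in WT, and 27.9% and 50.6% in KO cells. The part of T cells in the level of Fyn was not tested. Fyn has 9 annotated transcripts, which a single value per gene cannot separate.

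Because the 3 kinases are paralogs and FPKM is per length, their shares of the summed Lyn, Blk and Fyn level were set beside each other within each library. In WT cells Lyn made up 32.6% ± 1.64 at 1 h and 17.8% ± 0.976 at 6 h, Blk 61.5% ± 1.74 and 53.3% ± 1.75, and Fyn 5.85% ± 0.498 and 28.9% ± 0.772 (SD, n = 3, exact two-sided permutation p = 0.1 for each, the smallest value possible). In KO cells the shares went from 30.9% ± 1.36 to 17.1% ± 0.107 for Lyn, from 63.2% ± 2.25 to 54.8% ± 1.07 for Blk and from 5.87% ± 0.949 to 28.1% ± 1.17 for Fyn (exact p = 0.1 each). Fyn thus passed Lyn as the second most abundant transcript of the 3, while Blk stayed the most abundant. The Fyn to Lyn ratio was 0.162 to 0.216 in the 6 libraries of 1 h and 1.57 to 1.72 in those of 6 h. The summed level of the 3 kinases went from 402 ± 17.8 to 308 ± 5.48 FPKM in WT and from 412 ± 7.74 to 333 ± 9.73 FPKM in KO cells. Between the genotypes the shares gave exact p = 0.3 to 1.

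**Figure D2:**
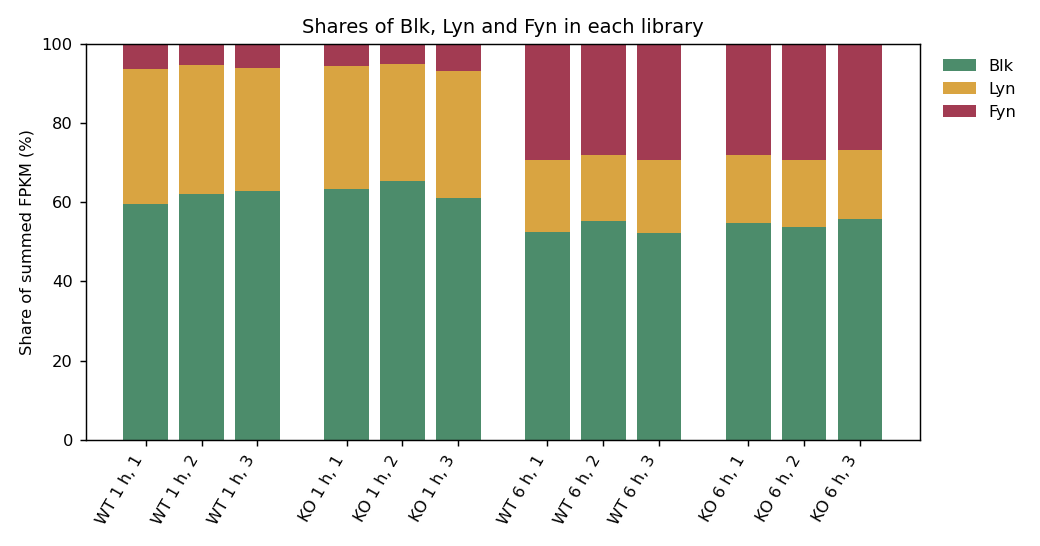
Share of Lyn, Blk and Fyn in their summed FPKM (y axis, percent, from 0) in each of the 12 libraries, ordered by group (x axis). Each stacked bar is a single library. The group mean of the Fyn share was 5.85% and 5.87% at 1 h and 28.9% and 28.1% at 6 h in WT and KO cells. That of the Lyn share fell from 32.6% and 30.9% to 17.8% and 17.1%.

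Syk (ENSMUSG00000021457, chromosome 13, 52583173 to 52648792, 14 exons), the kinase that binds phosphorylated CD79 and carries the signal onward, was at 228, 203 and 213 FPKM in WT and 208, 206 and 208 FPKM in KO cells at 1 h. At 6 h it was at 42.5, 37.8 and 46.9 FPKM in WT and 36.6, 42.2 and 41.2 FPKM in KO cells. All libraries of 6 h lay far below those of 1 h and the genotypes overlapped. The log2 fold changes were -2.32 and -2.35 (SE 0.08 each, limma adjusted p = 9.37e-10 and 8.94e-10), ranks 131 and 109 of 11841 counted from the most negative.

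Btk (ENSMUSG00000031264, chromosome X, 134542336 to 134583570, 19 exons), the Tec family kinase that phosphorylates PLCG2, changed least among the genes that fell. It was at 77.6, 76.9 and 84.2 FPKM in WT and 83.7, 86.6 and 82.5 FPKM in KO cells at 1 h, and at 72.1, 67.2 and 71.8 FPKM in WT and 72.8, 75.9 and 76.5 FPKM in KO cells at 6 h. The groups of 1 h and 6 h did not overlap within a genotype, with log2 fold changes of -0.17 and -0.16 (SE 0.05 each, limma adjusted p = 0.0046 and 0.0065). The Syk to Btk ratio, which sets a kinase that fell deeply beside its partner in the cascade, was 2.7 ± 0.213 in WT and 2.46 ± 0.073 in KO cells at 1 h and 0.601 ± 0.0465 and 0.532 ± 0.0271 at 6 h (SD, n = 3). Syk thus went from the more to the less abundant of the pair.

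Blnk (ENSMUSG00000061132, chromosome 19, 40928927 to 40994535, 17 exons), the scaffold on which Btk and PLCG2 meet, was at 144, 151 and 153 FPKM in WT and 130, 141 and 139 FPKM in KO cells at 1 h. At 6 h it was at 83.8, 82.1 and 76.7 FPKM in WT and 75.3, 76.2 and 76.6 FPKM in KO cells. It fell to 54.2% and 55.6% (log2 fold changes -0.88 and -0.84, SE 0.04 each, limma adjusted p = 1.37e-08 and 1.97e-08). At both times the highest KO value was below the lowest WT value, at 6 h by a narrow margin.

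Plcg2 (ENSMUSG00000034330, chromosome 8, 117498291 to 117635142, 33 exons), the phospholipase that starts calcium release, was at 72.3, 81.3 and 88.6 FPKM in WT and 84.4, 89.8 and 84.2 FPKM in KO cells at 1 h, and at 51.6, 51.5 and 50.5 FPKM in WT and 51.1, 49.9 and 55.5 FPKM in KO cells at 6 h. Its libraries of 1 h spread more than those of 6 h in WT cells, and the times did not overlap. The log2 fold changes were -0.64 and -0.71 (SE 0.07 each, limma adjusted p = 4.79e-06 and 1.99e-06).

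Vav1 (ENSMUSG00000034116, chromosome 17, 57279100 to 57328031, 27 exons), a guanine nucleotide exchange factor of blood cells, was at 48.9, 52.9 and 52.9 FPKM in WT and 51.7, 53.1 and 53.1 FPKM in KO cells at 1 h, and at 55.6, 62.1 and 60.2 FPKM in WT and 62.5, 61.1 and 63 FPKM in KO cells at 6 h. The times did not overlap, but the rise was small, at 0.20 and 0.24 on the log2 scale (SE 0.05 each, limma adjusted p = 0.00252 and 0.000716). It was about the median of all genes, 0.21 and 0.22. With libraries set to equal medians the change of Vav1 turned to -0.03 and -0.02 and was no longer called (adjusted p = 0.53 and 0.659).

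Bank1 (ENSMUSG00000037922, chromosome 3, 136053363 to 136326066, 17 exons), a B cell scaffold that binds Lyn and IP3 receptors, was at 215, 228 and 234 FPKM in WT and 232, 237 and 216 FPKM in KO cells at 1 h. At 6 h it was at 25.2, 17.9 and 23.2 FPKM in WT and 22.5, 19.8 and 23.1 FPKM in KO cells. It ranked 3 among the 10 genes at 1 h and was the lowest of them at 6 h. The log2 fold changes were -3.31 and -3.33 (SE 0.10 each, limma adjusted p = 6.51e-10 and 6.71e-10), ranks 21 and 18 of 11841 from the most negative, against a 5th percentile of all genes of -1.41 and -1.33.

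Pik3ap1 (ENSMUSG00000025017, chromosome 19, 41272377 to 41385102, 17 exons), which encodes the PI3 kinase adaptor BCAP, was at 287, 236 and 280 FPKM in WT and 307, 297 and 287 FPKM in KO cells at 1 h. At 6 h it was at 93.5, 94.5 and 99.1 FPKM in WT and 112, 113 and 116 FPKM in KO cells. It fell to 35.7% and 38.3% (log2 fold changes -1.47 and -1.38, SE 0.07 each, limma adjusted p = 5.92e-09 and 9.59e-09). The fall of Bank1 was deeper than that of its fellow adaptor, and the Pik3ap1 to Bank1 ratio went from 1.19 ± 0.151 to 4.42 ± 0.789 in WT and from 1.3 ± 0.0405 to 5.24 ± 0.404 in KO cells (SD, n = 3).

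**Figure D3:**
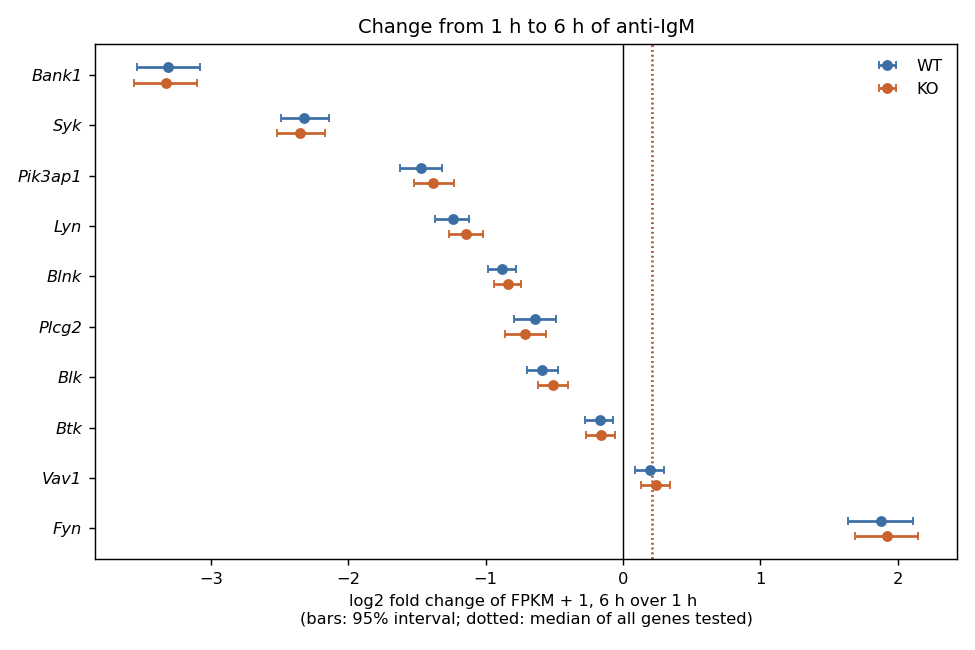
Log2 fold change of FPKM + 1 from 1 h to 6 h (x axis) of the 10 genes (y axis) in WT and KO cells; points are limma estimates, bars 95% intervals, and dotted lines the median of all genes tested. The values run from -3.31 and -3.33 for Bank1 to 1.88 and 1.92 for Fyn, with Vav1 at the median of all genes.

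In mean FPKM the order at 1 h was Pik3ap1, Blk, Bank1, Syk, Blnk, Lyn, Plcg2, Btk, Vav1 and Fyn in both genotypes. In WT cells the neighbours Pik3ap1 and Blk, Bank1 and Syk, and Plcg2 and Btk overlapped between libraries, and in KO cells Plcg2 and Btk did. At 6 h the order was Blk, Pik3ap1, Fyn, Blnk, Btk, Vav1, Lyn, Plcg2, Syk and Bank1 in both genotypes, with overlap of Vav1 with Lyn and Lyn with Plcg2 in WT and of Blnk with Btk and Lyn with Plcg2 in KO cells. Summed over the 10 genes the level fell from 1472 ± 55.3 to 730 ± 11.3 FPKM in WT and from 1503 ± 28.4 to 774 ± 16.4 FPKM in KO cells (SD, n = 3), to 49.6% and 51.5%. The summed B cell markers fell over the same interval, as given above, and whether a shared cause moved both was not tested.

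Promoter sequence is shown for the adaptor genes that fell and for Fyn, which rose. The letters before a RefSeq start of genes moving in opposite directions can thus be compared. RefSeq windows (GRCm38.p6) matched 8 of the 10 genes, with 9 windows in all, and the 250 bases before each RefSeq start are given. The windows of Fyn and Blnk lie inside the gene spans given above, so they precede a RefSeq start and not the whole annotated gene. Capitals mark matches on either strand. The letters searched were AGGAAG for ETS factors, ATGCAAAT for the octamer, CACGTG for the E-box, GGGCGG for SP1, the CCAAT box, TATAAA for the TATA box, and for NF-kB GGGA and CC with 4 bases of any kind between them.
Bank1, chr3:136326067-136326316, minus strand: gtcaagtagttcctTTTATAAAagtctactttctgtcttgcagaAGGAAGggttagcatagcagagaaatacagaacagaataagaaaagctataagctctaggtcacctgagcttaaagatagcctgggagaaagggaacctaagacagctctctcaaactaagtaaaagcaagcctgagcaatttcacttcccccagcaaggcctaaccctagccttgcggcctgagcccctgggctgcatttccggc
Pik3ap1, chr19:41385103-41385352, minus strand: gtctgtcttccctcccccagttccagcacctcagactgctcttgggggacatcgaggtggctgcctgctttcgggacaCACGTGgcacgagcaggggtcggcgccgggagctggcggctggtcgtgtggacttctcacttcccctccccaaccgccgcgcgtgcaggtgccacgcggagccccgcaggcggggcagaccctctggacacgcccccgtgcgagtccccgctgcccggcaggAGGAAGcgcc
Blnk, chr19:40994222-40994471, minus strand: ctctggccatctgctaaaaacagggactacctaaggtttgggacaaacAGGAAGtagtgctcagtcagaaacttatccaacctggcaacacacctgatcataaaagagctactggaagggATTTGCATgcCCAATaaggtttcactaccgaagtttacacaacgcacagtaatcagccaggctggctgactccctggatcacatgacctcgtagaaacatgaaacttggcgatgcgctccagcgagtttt
Fyn, chr10:39369549-39369798, plus strand: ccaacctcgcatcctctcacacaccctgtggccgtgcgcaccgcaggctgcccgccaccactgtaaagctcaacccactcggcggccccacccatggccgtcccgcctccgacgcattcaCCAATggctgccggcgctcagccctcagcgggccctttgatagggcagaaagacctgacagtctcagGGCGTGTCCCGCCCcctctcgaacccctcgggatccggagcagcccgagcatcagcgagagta
The ETS letters were in the windows of the 3 adaptor genes and of Vav1, which are 4 of 9 windows, and in 29.5% of all 32851 windows of this length. Blnk also held the octamer (1.6% of all windows) and CCAAT (33.8%), Bank1 TATA at 2 overlapping positions on opposite strands (12.4%) and Pik3ap1 the E-box (6.02%). Fyn held NF-kB letters (17.6%) that overlap SP1 letters (32.7%), and CCAAT. Plcg2 held NF-kB, SP1 and E-box letters. Letters for EGR factors (GCGNGGGCG, in 4.7% of all windows), for AP-1 (TGANTCA, 6.75%), for FOXO factors (TGTTTAC, 3.17%) and for the cAMP response element (TGACGTCA, 1.55%) were in 0 of the 9 windows. A match describes the letters and not a site in use.

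By its title the series concerns BCR signalling in B cells without Fcmr, and the proximal genes showed no difference between KO and WT cells that passed over all genes. At 1 h 0 of the 10 were called (limma, adjusted p under 0.05), where 0.524% of all genes tested were, and at 6 h 0 of the 10, where 0.228% were. At an unadjusted p under 0.05 there were 2 of the 10 at each time, against 11.3% and 7.55% of all genes. The voom fit on recovered fragments and the fit without both WT libraries numbered 3 also called 0. The differences were from -0.13 to 0.15 on the log2 scale at 1 h and from -0.09 to 0.25 at 6 h, with a median of 0.03 and 0.06 over the 10 genes.

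Pik3ap1 came nearest to a call. At 6 h its KO libraries (112 to 116 FPKM) all lay above its WT libraries (93.5 to 99.1 FPKM), a difference of 0.25 (95% interval 0.10 to 0.39, limma adjusted p = 0.299). At 1 h the libraries overlapped, with a difference of 0.15 (0.01 to 0.30, adjusted p = 0.415). Over the alternatives the lowest adjusted p of any of the 10 genes was 0.209 at 1 h and 0.0555 at 6 h, so none was called in any of them. Blk differed by 0.15 at 6 h (0.04 to 0.26, adjusted p = 0.451) with separate libraries, and by 0.07 at 1 h. Blnk had a log2 difference of -0.13 at 1 h (-0.22 to -0.03, adjusted p = 0.304) and -0.09 at 6 h (-0.19 to 0.01, adjusted p = 0.713). The genotypes had separate libraries for Blnk at 1 h, 1 of 10 against 14.8% of all genes, and for Blk, Btk, Blnk and Pik3ap1 at 6 h, 4 of 10 against 15.1%.

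The remaining genes had 95% intervals that include 0. At 1 h the differences were -0.04 for Lyn (95% interval -0.17 to 0.08), 0.03 for Fyn (-0.20 to 0.26), -0.05 for Syk (-0.22 to 0.12), 0.08 for Btk (-0.02 to 0.18), 0.10 for Plcg2 (-0.05 to 0.25), 0.03 for Vav1 (-0.07 to 0.13) and 0.01 for Bank1 (-0.22 to 0.25). At 6 h they were 0.05 for Lyn (-0.07 to 0.18), 0.07 for Fyn (-0.16 to 0.30), -0.08 for Syk (-0.25 to 0.09), 0.09 for Btk (-0.01 to 0.19), 0.02 for Plcg2 (-0.12 to 0.17), 0.07 for Vav1 (-0.03 to 0.17) and -0.01 for Bank1 (-0.24 to 0.22). The intervals are widest for Fyn and Bank1. Neutrophil, macrophage, marginal zone, T cell and NK cell markers had negative median differences at 1 h (-1.84, -0.65, -0.57, -0.37 and -0.25), and their part in these values was not tested.

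**Figure D4:**
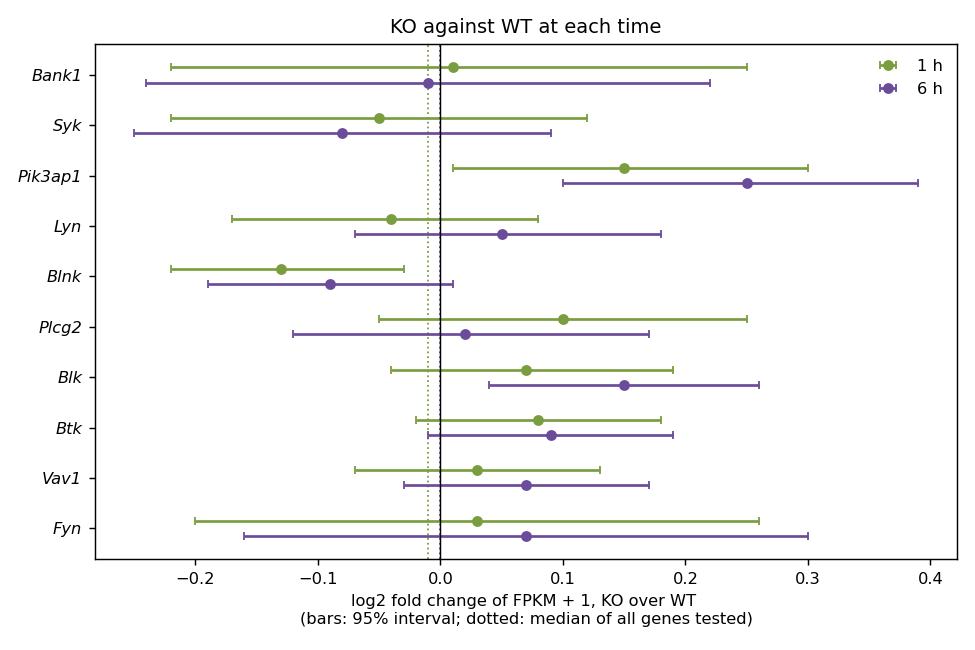
Log2 fold change of FPKM + 1, KO over WT (x axis), of the 10 genes (y axis) at 1 h and 6 h; points are limma estimates, bars 95% intervals and dotted lines the median of all genes tested. The estimates run from -0.13 to 0.25, and 0 of the 10 passed over all genes at either time.

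For none of the 10 genes did the difference between genotypes in the change over time pass (limma, 0 called and 0 at an unadjusted p under 0.05, which 4.54% of all genes had). Over all genes tested 3, or 0.0253%, were called, and 1 with the replicate number as a block. The differences ranged from -0.07 (Plcg2, 95% interval -0.28 to 0.14) to 0.10 (Lyn, -0.08 to 0.28). An interval of this width leaves room for modest differences in the fall or rise of each gene.

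The genes around the 10 were described by lists. For comparison, 29.2% of all genes tested were called lower over time and 49.5% higher in WT, and 27.9% and 50.6% in KO cells. Of 16 paralogs, 12 passed the filter, and over time 7 fell and 2 rose in WT (median log2 fold change -0.35) and 6 fell and 2 rose in KO cells (median -0.28). Lck, the Src family kinase of T cells, rose from 27.7 ± 0.439 to 38.8 ± 5.92 FPKM in WT and from 36.5 ± 1.43 to 47 ± 2.33 FPKM in KO cells (SD, n = 3), log2 fold changes of 0.46 and 0.36 (limma adjusted p = 0.000452 and 0.00274). With libraries set to equal medians the changes of Lck were 0.23 and 0.09, and it was no longer called in KO cells (adjusted p = 0.0292 and 0.334). Lck is itself in the list of T cell markers. The adaptor gene Lcp2 (-1.13 and -1.09), the Syk relative Zap70 (-0.78 and -0.72) and Vav2 (-0.43 and -0.47) fell. In KO against WT cells 0 of the 12 paralogs were called at either time (limma, 6 and 4 at an unadjusted p under 0.05, against 11.3% and 7.55% of all genes). Lck differed by 0.38 at 1 h (limma adjusted p = 0.0937) and 0.28 at 6 h (adjusted p = 0.396). Without WT replicate 2 of 6 h it was called at both times (adjusted p = 0.00958 and 0.0275). Lcp2 differed by -0.37 at 1 h (adjusted p = 0.165) and -0.32 at 6 h (adjusted p = 0.396). Macrophage markers were also lower in KO cells at 1 h, and a link to Lcp2 was not tested.

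Receptor and coreceptor genes fell in WT for 6 of 9 and rose for 1 (median -0.71), and in KO cells for 6 and 2 (median -0.86). Cd79a, which carries the tyrosines that Lyn phosphorylates, fell from 816 ± 41.2 to 211 ± 11.7 FPKM in WT and from 808 ± 18 to 226 ± 9.79 FPKM in KO cells (log2 fold changes -1.95 and -1.83). Its partner Cd79b rose, from 194 ± 20.5 to 250 ± 8.28 FPKM and from 177 ± 8.03 to 239 ± 9.39 FPKM (0.37 and 0.44, limma adjusted p = 0.000554 and 0.000149). With equal medians its changes were 0.13 and 0.17, and the call in WT ended (adjusted p = 0.0913 and 0.0357). The genes Cr2 (-1.54 and -1.21) and Cd38 (-1.53 and -1.41) and the chemokine receptor gene Cxcr5 (-0.68 and -0.86) fell. In KO against WT cells 0 of the 9 were called at 1 h or 6 h (limma, 0 and 2 at an unadjusted p under 0.05, against 11.3% and 7.55% of all genes).

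Of 13 tested regulators of these kinases, 10 fell and 1 rose in WT (median -0.65) and 9 fell and 1 rose in KO cells (median -0.66). The phosphatase gene Ptprc, whose product CD45 activates Src family kinases by removing an inhibitory phosphate, fell by 1.55 and 1.63 on the log2 scale. Cd22, an inhibitory receptor that Lyn phosphorylates, fell from 205 ± 33.3 to 43.8 ± 3.37 FPKM in WT and from 217 ± 19.4 to 54 ± 2.56 FPKM in KO cells. The phosphatase gene Ptprj (-1.54 and -1.60) and Pag1 (-1.15 and -1.16), an anchor for the inhibitory kinase CSK, also fell. Cd72, an inhibitory coreceptor, was the called gene in KO against WT cells at 1 h, at 265 ± 6.46 against 210 ± 6.97 FPKM (log2 fold change 0.33, limma adjusted p = 0.00583). Fitted with the 6 libraries of 1 h only, it was not called (limma adjusted p = 0.0809). Over all genes tested 0.524% were called at 1 h. At 6 h 0 of the 13 passed (limma, 5 at an unadjusted p under 0.05, against 7.55% of all genes), and Cd72 stood at 0.18 (adjusted p = 0.175) and the phosphatase gene Ptpn6 at 0.17 (adjusted p = 0.451).

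Partners and downstream effectors fell for 19 of 27 in each genotype and rose for 7 in WT and 6 in KO cells (medians -0.69 and -0.62). Themis2, an adaptor of B cells, fell from 83.6 ± 4.67 to 12.7 ± 0.122 FPKM in WT and from 79.6 ± 3.19 to 14.1 ± 1.11 FPKM in KO cells, log2 fold changes of -2.62 and -2.42. The calcium channel gene Itpr3 (-1.91 and -1.82), the PI3 kinase subunit gene Pik3r1 (-1.08 and -0.95), Stap1 (-0.82 and -0.76) and Bcl10 (-0.47 and -0.44) fell. Akt1, a kinase that acts below PI3 kinase, rose from 29.7 ± 1.28 to 50.6 ± 1.82 FPKM in WT and from 27.2 ± 1.28 to 50 ± 1.6 FPKM in KO cells. Of the 27, 0 were called in KO against WT cells at either time (limma, 4 at an unadjusted p under 0.05 at each, against 11.3% and 7.55% of all genes). With libraries set to equal medians all changes over time in these lists lie lower by 0.23 in WT and 0.26 in KO cells.

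**Figure D5:**
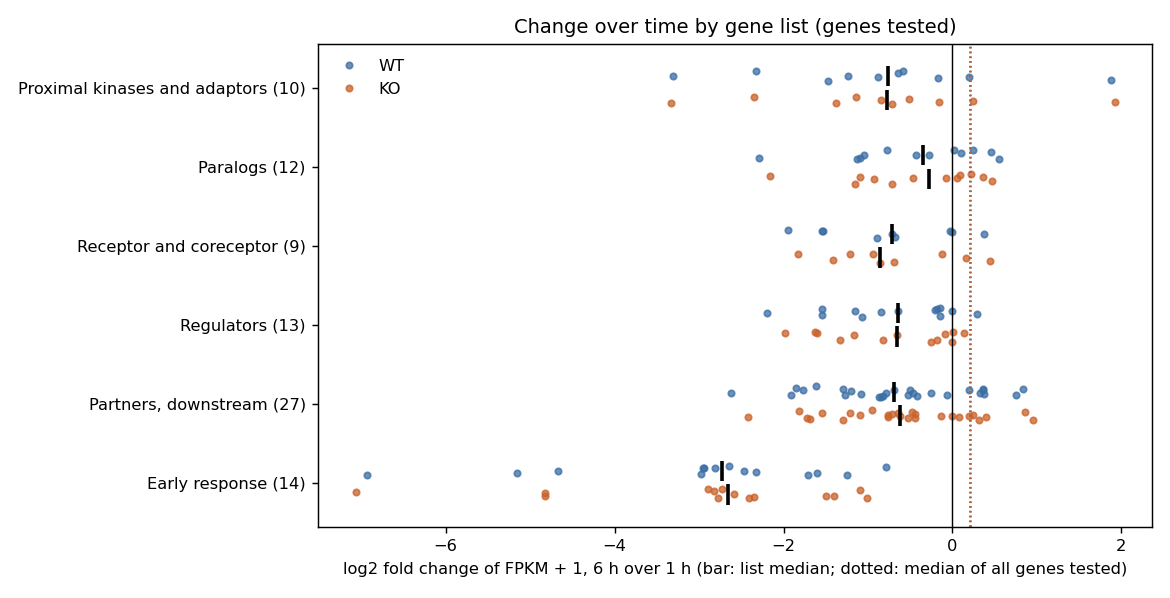
Log2 fold change of FPKM + 1 from 1 h to 6 h (x axis) of each tested gene by list (y axis, number tested in brackets) in WT and KO cells; bars are list medians and dotted lines the median of all genes tested. The 10 proximal genes have medians of -0.76 and -0.78, near those of receptor genes (-0.71 and -0.86), regulators (-0.65 and -0.66) and partners (-0.69 and -0.62), and the early response genes lie lowest (-2.73 and -2.66).

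For each of 9 of the 10 genes the tested gene with the highest Pearson's r of log2(FPKM + 1) over the 12 libraries was found. Pearson's r compares the shape of a course and not the size of its change. These libraries share the split between 1 h and 6 h, which sets most of each value. The pairs were Lyn with Taok3 (0.998), Blk with Slc36a3os (0.995), Syk with Dusp16 (0.999), Blnk with Jun (0.997), Plcg2 with Arhgap6 (0.995), Bank1 with Tax1bp1 (0.999) and Pik3ap1 with Litaf (0.997). For these 7 genes between 1140 and 1724 genes had an r over 0.95, so the named gene is one of many. Btk (Kdm5b, 0.967) and Vav1 (Ccar2, 0.976), which changed least, had 21 and 41 such genes. The depth of the change differed within some pairs. In WT, log2 fold changes were -3.31 for Bank1 and -0.85 for Tax1bp1, -0.88 for Blnk and -2.65 for Jun, and -0.59 for Blk and -1.30 for Slc36a3os. They were nearer for Lyn (-1.24) and Taok3 (-0.98) and for Syk (-2.32) and Dusp16 (-2.80).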

How the data were processed

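The authors deposited FPKM for 55487 genes in 12 libraries (poly-A RNA, strand-marking kit, paired-end reads, per the labels' protocols). The unit is that of the table's name. Build mm10, STAR and HTSeq are named, without versions, per the submitters' processing notes, and the annotation used is not given in the sources used here. All 12 columns were used and 0 were left out. FPKM multiplied by a GENCODE vM21 transcript length gave whole fragments (tolerance 0.001) for 99.01% of tested genes, and from this the library totals of 19260751 to 24058818. A count of 3 fragments on 2 kb is 0.0623 to 0.0779 FPKM, for counting error only.

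limma 3.58.1 (R 4.3.3) was fitted to log2(FPKM + 1) with a mean for each of 4 groups, a variance trend, and two-sided tests, adjusted by Benjamini-Hochberg across the 11841 genes whose mean was at least 1 FPKM and called at an adjusted p under 0.05. The script was tested on simulated data. Shares of Lyn, Blk and Fyn and the Fcmr level were compared by an exact permutation test in scipy 1.17.1. The 10 genes and the lists were chosen with earlier results of these data known. The lists are paralogs, receptor and coreceptor, regulators, partners and downstream effectors, early response genes, and markers of B cells, T cells, NK cells, macrophages, neutrophils, marginal zone B cells and plasma cells. Named from each pathway list were up to 4 genes with the smallest p over time in WT and up to 2 in KO against WT at each time. Predicted genes and immunoglobulin segments were passed over. For likeness, the gene with the highest r was named. The gene list of B cell markers shares Cd79a, Cd79b, Cr2 and Cd22, among others, with other lists, and that of T cells Lck and Zap70, among others. Some genes that the rule picks are not reported here.

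Replicate numbers were checked on deviations from group means. Within a genotype, same-numbered libraries of 1 h and 6 h had correlations of 0.338 to 0.547 (WT) and 0.365 to 0.476 (KO), against -0.368 to 0.017 and -0.279 to -0.132 for different numbers, so the numbers were taken as pairs over time. Across genotypes the same-numbered correlations were -0.15 to 0.248 (1 h) and -0.075 to 0.01 (6 h), and no pairing was assumed outside the replicate block. Alternatives were a pseudocount of 0.1 FPKM, no filter, a mean of at least 5 FPKM, equal medians, the replicate block, the groups compared alone, voom on recovered fragments, each library left out, and, chosen after seeing the data, both WT libraries numbered 3 left out.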

Additional observations from a re-analysis of the deposited data

How the results depend on the processing

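Under all 20 alternatives (19 for the difference between genotypes over time, where the groups compared are all groups) the calls of the 10 genes were kept except that of Vav1 over time, which turned to -0.03 in WT and -0.02 in KO cells with equal medians and left 1 gene called higher in each genotype. The replicate block pairs libraries across the times within a genotype for the changes over time and their difference. For KO against WT it is a term for the replicate number that both genotypes share. With the block 10 of 10 remained called over time in each genotype and 0 in KO against WT. The genes called overall were 53, 25, 9681, 9659 and 1 for KO against WT at 1 h and 6 h, time in WT and KO, and the difference between them (62, 27, 9324, 9292 and 3 without it). Genes called in KO against WT at 1 h were 115 with no filter, 32 with a stricter minimum mean of 5 FPKM, 21 with the groups compared alone, 96 with voom and 191 without both WT libraries numbered 3, and 30 to 142 leaving out 1 library. At 6 h they were 10 with the groups compared alone and 64 without both WT libraries numbered 3, and 12 to 30 leaving out 1 library. Genes whose change differed between genotypes were 0 with a pseudocount of 0.1, 21 with no filter, 0 with the stricter minimum, 0 with voom and 1 without both WT libraries numbered 3, and 1 to 3 leaving out 1 library. Among the 10 genes, small differences that were not called changed sign. Without both WT libraries numbered 3 these were Bank1 in KO against WT at 6 h (0.03) and, for the difference between genotypes over time, Syk (0.05), Btk (-0.02, as with equal medians, -0.02) and Blnk (-0.01). Leaving out 1 library, KO against WT ranged at 1 h from -0.08 to 0.01 for Lyn, -0.08 to 0.11 for Fyn, -0.01 to 0.05 for Vav1 and -0.02 to 0.05 for Bank1, and at 6 h from -0.02 to 0.06 for Plcg2 and -0.15 to 0.09 for Bank1. The difference between genotypes over time ranged from -0.04 to 0.15 for Fyn, -0.11 to 0.04 for Syk, -0.03 to 0.03 for Btk, -0.14 to 0.0037 for Plcg2, -0.0047 to 0.08 for Vav1 and -0.16 to 0.07 for Bank1. As a share of 9 Src family kinases, Lyn made up 28.1%, 26.6%, 15.2% and 14.5% (WT 1 h, KO 1 h, WT 6 h, KO 6 h), Blk 52.9%, 54.4%, 45.5% and 46.4%, and Fyn 5.04%, 5.05%, 24.6% and 23.8%. As shares of recovered fragments, not divided by length, Lyn made up 40.8%, 38.9%, 21.4% and 20.7%, Blk 51.7%, 53.5%, 43% and 44.4%, and Fyn 7.53%, 7.6%, 35.6% and 34.9%. The larger denominator and the missing division by length lower or raise shares by construction, and for the other changes the cause was not tested. Values rest on 3 libraries a group and on transcript levels, and protein and phosphorylation were not measured in the files used here.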

Other observations

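The early response genes, mostly transcription factors that BCR signals induce early, all fell between the times, 14 of 14 in each genotype (limma, adjusted p under 0.05). Of all genes tested, 29.2% were called lower in WT and 27.9% in KO cells. The medians of the list were -2.73 in WT and -2.66 in KO cells, against 0.21 and 0.22 over all genes. Fosb, a subunit of the AP-1 factor, went from 210 ± 48 to 0.702 ± 0.0122 FPKM in WT and from 204 ± 12.6 to 0.537 ± 0.0514 FPKM in KO cells (SD, n = 3). Egr3, a zinc finger factor, went from 635 ± 22.5 to 114 ± 1.2 FPKM and from 593 ± 25.1 to 110 ± 3.65 FPKM, and Nr4a2, a nuclear receptor, and Cd69, an activation antigen, changed by -5.16 and -4.83 and by -2.95 and -2.90 on the log2 scale. Of the 10 proximal genes, Bank1 (-3.31 and -3.33) fell further than the median of this list in both genotypes.

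In KO against WT cells all 14 early response genes had a negative difference at 1 h (median -0.17, 0 called, 7 at an unadjusted p under 0.05, limma). Over all 11841 genes 6465 were negative and 11.3% had such a p. Fosb and Nr4a3 (-0.02 each) and Fos (-0.04) lay near 0, and with equal medians Fosb stood at 0.00. Jun measured 27.9 ± 2.09 FPKM in KO cells against 37.8 ± 5.05 FPKM in WT (-0.42, adjusted p = 0.0744, and 0.0167 to 0.298 over the alternatives), and was called with voom (adjusted p = 0.0406) and without WT replicate 1 of 1 h (0.0167). Egr1 measured 155 ± 4.17 and 201 ± 20 FPKM (-0.37, adjusted p = 0.129). At 6 h 10 of the 14 were negative and 4 positive (median -0.12), where 5837 of all 11841 genes were negative. Of the 14, 1 was called at 6 h, Dusp5, a phosphatase that acts on ERK. It measured 16.4 ± 1.11 FPKM in KO cells against 24.5 ± 0.967 FPKM in WT (-0.55, limma adjusted p = 0.0101, 0.0065 to 0.0644 over the alternatives). Fitted with the 6 libraries of 6 h only, it was not called (limma adjusted p = 0.0551). Leaving out any of 4 libraries of 6 h also ended the call. These were WT replicates 1 and 2 (adjusted p = 0.0639 and 0.0504) and KO replicates 1 and 3 (0.0603 and 0.0644). Over all genes tested 0.228% were called at 6 h.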
